A study of Mus musculus with 6 samples.

Results

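Penk, Areg, Klrg1, Gpr83, Izumo1r, Nfil3 and Csf1 are 7 genes linked to regulatory T cells (Tregs) that settle in tissues and take part in repair. They were taken by symbol from a table of 15944 genes, and all 7 were found, each on 1 row. The set was chosen on the difference between the 2 sorts of cells in these same libraries, so that difference is described below for the members and carries no test. RNA was sequenced in bulk from Tregs of the spleens of C57BL/6 mice, in which a red reporter marked Foxp3, the transcription factor that defines Tregs, and a green reporter marked RORγt, a transcription factor of the type 17 programme. The first sort held 3 libraries of RORγt+ Tregs (CD3+ CD4+, both reporters on), which the labels also call biTregs. The second held 3 libraries of CCR6+ RORγt- Tregs (CD3+ CD4+, Foxp3 reporter on, RORγt reporter off, stained for the chemokine receptor CCR6), also labelled Treg17. The labels give neither the age of the mice nor whether each library came from a separate animal, so the spread between libraries may be technical.

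Tissue Tregs differ from most splenic Tregs in carrying receptors for tissue signals and in making factors that act on neighbouring cells rather than on lymphocytes alone. Penk encodes proenkephalin, the precursor that is cut into enkephalins, the endogenous opioid peptides. Areg encodes amphiregulin, a membrane-bound ligand of the EGF receptor through which Tregs are known to help injured lung and muscle of mice recover. Csf1 encodes the growth factor that keeps macrophages alive. Klrg1 encodes an inhibitory receptor for cadherins that marks highly differentiated Tregs and effector T cells. Gpr83, a G protein-coupled receptor, and Izumo1r, a member of the folate receptor family also known as folate receptor 4, are surface proteins long used as Treg markers in mice. Nfil3 is a basic leucine zipper repressor, known in mouse helper T cells for restraining the type 17 fate and in Tregs for marking precursors of the tissue population.

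The members lie on 6 chromosomes of the GRCm38 genome, by the GENCODE annotation. Penk is at chr4:4133531-4138819 on the minus strand, Areg at chr5:91139599-91148432 on the plus strand, Klrg1 at chr6:122270596-122282882 on the minus strand, Nfil3 at chr13:52967209-52981073 on the minus strand and Csf1 at chr3:107741048-107760469 on the minus strand. Gpr83, at chr9:14860210-14870789 on the plus strand, and Izumo1r, at chr9:14885814-14903949 on the minus strand, face each other with their 3' ends 15024 bases apart, and no other gene of the table lies between them.

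Promoter entries of RefSeq (GRCm38.p6) were matched for 5 of the 7 members, all but Penk and Klrg1. The last 100 bases before the start of transcription are shown for Areg and Csf1, which were both lower in RORγt+ Tregs, and for Gpr83, which was higher, since these are the entries whose start is also that of the GENCODE gene. They read 5' to 3' on the strand of the gene, at chr5:91139499-91139598 (plus) for Areg, chr3:107760470-107760569 (minus) for Csf1 and chr9:14860110-14860209 (plus) for Gpr83. Capitals mark a cyclic AMP response element, in full or in its short form, or a TATA box. In Gpr83 the short form lies on the opposite strand.
Areg: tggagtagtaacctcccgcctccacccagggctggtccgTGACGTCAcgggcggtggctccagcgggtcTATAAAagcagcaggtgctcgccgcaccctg
Csf1: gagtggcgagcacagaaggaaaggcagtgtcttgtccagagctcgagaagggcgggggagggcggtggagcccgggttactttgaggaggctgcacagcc
Gpr83: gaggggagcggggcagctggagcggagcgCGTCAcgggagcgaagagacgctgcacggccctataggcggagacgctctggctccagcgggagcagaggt

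In 250 bases before the start, searched on both strands, the full cyclic AMP response element TGACGTCA was found in Areg at position −61, counted from the start of transcription, and in none of the other 4 entries. It occurs in 1.55% of 32851 promoters of that length. The TATA box TATAAA was found in Areg at position −31 and in no other member, against 12.4% of all promoters. The short form TGACG, which is also part of the full element, was found in Areg, Gpr83 and Nfil3, against 17.8% of all promoters. The AP-1 site TGANTCA (6.75% of all promoters) and the NFIL3 site TTANGTAA (2.06%) were in none of the 5 entries, and AGGTCA, the core of ROR sites, (14.0%) was in that of Nfil3. These matches describe letters in a window and do not show that a factor binds.

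The 6 libraries held an estimated 9210000 to 14500000 reads in the 15944 genes, from the total of each divided by its inferred value of a single read. Values are normalized counts, scaled by the authors so that libraries can be compared. Foxp3 stood at 10835, 11072 and 12609 normalized counts in RORγt+ Tregs and 9914, 10187 and 9790 in CCR6+ RORγt- Tregs, so both sorts carry the defining Treg transcript. Ccr6 stood at 698, 815 and 900 in RORγt+ Tregs and 112, 143 and 148 in CCR6+ RORγt- Tregs, although CCR6 was a gate of the second sort only. RORγt+ replicate 3 was unlike the rest: its best correlation with any library was 0.938, while that of each other library was 0.964 or more. It also listed 1247 genes at 0, against 438 to 638 elsewhere, and results of members that rest on it are given without it.

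Penk, the source of enkephalins, was lower in RORγt+ Tregs, at 228, 261 and 293 normalized counts in replicates 1 to 3, against 700, 724 and 666 in CCR6+ RORγt- Tregs. The groups were far apart, since the lowest CCR6+ RORγt- library held 2.27 times the highest RORγt+ library. Means were 261 ± 32.8 and 697 ± 29.3 (SD, n = 3 each), a log2 fold change of −1.42 ± 0.15 (SE from limma, on log2(normalized count + 1)), or 2.68-fold lower in RORγt+ Tregs. The difference was between −1.51 and −1.33 with any 1 library left out. An antisense gene, A830012C17Rik, overlaps Penk and shares 10.9% of its sequence windows of 31 bases, and reads of the pair cannot be told apart there because the counting is not stated to use strand. In bulk RNA, fewer cells that make a transcript and less of it per cell cannot be told apart, for Penk and every gene below.

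Csf1, the macrophage growth factor, was at 232, 224 and 365 normalized counts in RORγt+ Tregs and 737, 533 and 492 in CCR6+ RORγt- Tregs. The groups did not overlap, and the nearest libraries were RORγt+ replicate 3 and CCR6+ RORγt- replicate 3, 1.35 times apart. Means were 274 ± 79.3 and 587 ± 131 (SD, n = 3 each). The log2 fold change was −1.11 ± 0.25 (SE), and −1.34 without RORγt+ replicate 3.

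Areg, the EGF receptor ligand, was the least abundant member, at 14.7, 10.9 and 11.2 normalized counts in RORγt+ Tregs and 28.9, 29.1 and 22.2 in CCR6+ RORγt- Tregs. These values rest on about 14, 11 and 9 reads in the RORγt+ libraries and 28, 32 and 27 in the CCR6+ RORγt- libraries, so counting error alone is large. The groups did not overlap, and the mean was 12.3 ± 2.12 against 26.7 ± 3.97 (SD, n = 3 each). Its log2 fold change of −1.06 ± 0.35 (SE) was −0.88 with a pseudocount of 5, which weighs down low genes.

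Nfil3, the leucine zipper repressor, held 94.2, 95.0 and 103 normalized counts in RORγt+ Tregs, against 212, 133 and 155 in CCR6+ RORγt- Tregs. The RORγt+ libraries were alike, with a coefficient of variation of 5.12%, while the CCR6+ RORγt- libraries spread over 24.3% and replicate 1 was the highest. The log2 fold change was −0.74 ± 0.23 (SE), and −0.56 without CCR6+ RORγt- replicate 1.

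Izumo1r, the folate receptor family member, was the most abundant, at 3631, 3459 and 6385 normalized counts in RORγt+ Tregs and 6454, 6390 and 5842 in CCR6+ RORγt- Tregs. It was the only member whose groups overlapped, because RORγt+ replicate 3 lay within the CCR6+ RORγt- range. The mean was 4492 ± 1642 against 6229 ± 336 (SD, n = 3 each), with a log2 fold change of −0.53 ± 0.23 (SE). Without RORγt+ replicate 3, the RORγt+ mean was 3545 and the log2 fold change −0.81, over 1.5 times the value with all libraries.

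Klrg1, the cadherin receptor of differentiated cells, was higher in RORγt+ Tregs, at 591, 792 and 408 normalized counts, against 267, 389 and 283 in CCR6+ RORγt- Tregs. The groups did not overlap but nearly met, since the lowest RORγt+ library, replicate 3, was 1.05 times the highest CCR6+ RORγt- library, replicate 2. Means were 597 ± 192 and 313 ± 66.1 (SD, n = 3 each). The log2 fold change was 0.90 ± 0.27 (SE), 1.15 without RORγt+ replicate 3 and 0.67 without RORγt+ replicate 2.

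Gpr83, the Treg marker beside Izumo1r, was also higher in RORγt+ Tregs, at 1785, 1499 and 1638 normalized counts, against 1366, 1288 and 1292 in CCR6+ RORγt- Tregs. The difference was the smallest of the 7, with a log2 fold change of 0.32 ± 0.12 (SE), and the groups did not overlap. The convergent neighbours Gpr83 and Izumo1r thus had fold changes of opposite sign. The ratio of Izumo1r to Gpr83 was 2.03, 2.31 and 3.90 in the RORγt+ libraries and 4.72, 4.96 and 4.52 in the CCR6+ RORγt- libraries, without overlap. Both genes were chosen on this contrast, so nothing is read from that separation.

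**Figure D1:**
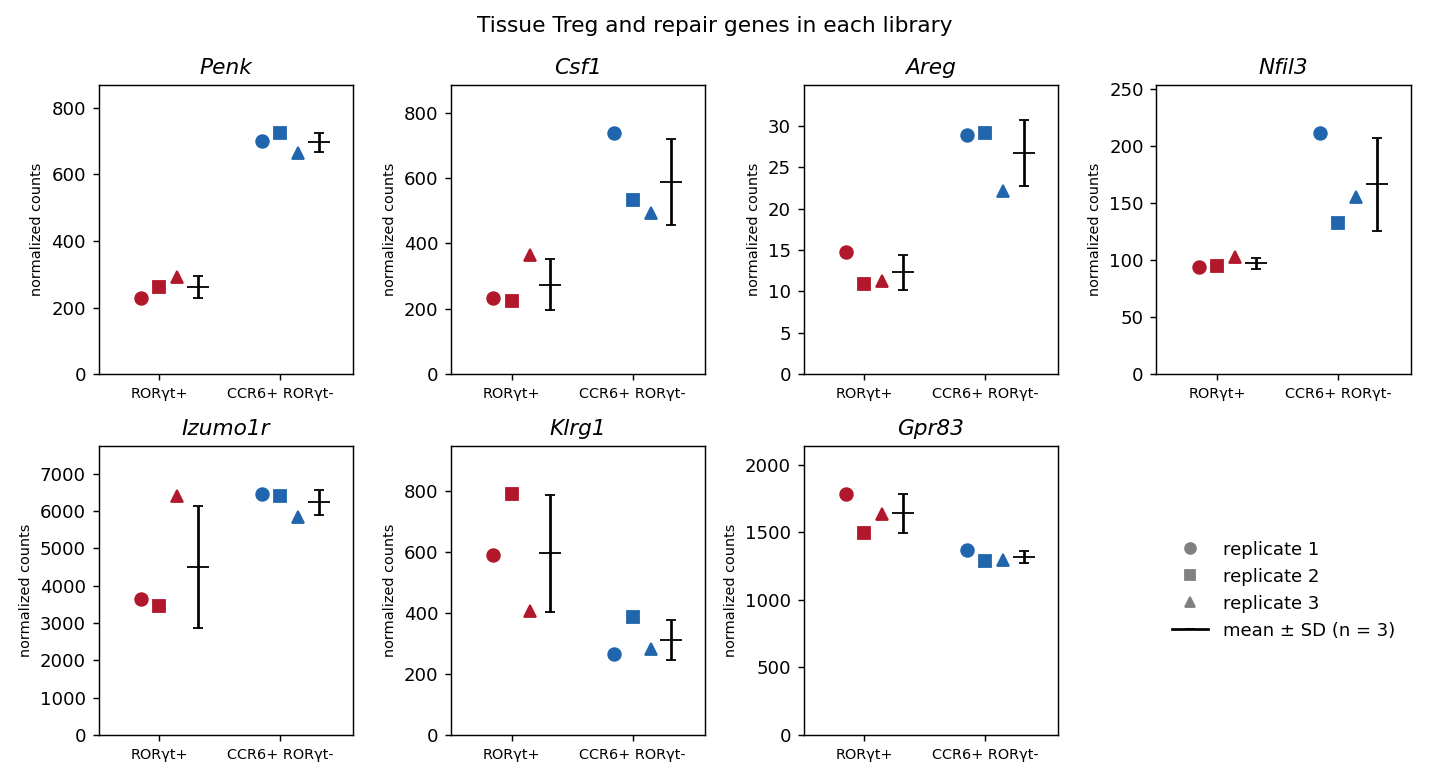
Normalized counts (vertical axes, from 0) of the 7 members in the 3 RORγt+ and 3 CCR6+ RORγt- Treg libraries, with the mean ± SD (n = 3) as bars; symbols give the replicate number. Penk, Csf1, Areg and Nfil3 lie lower and Klrg1 and Gpr83 higher in every RORγt+ library, and RORγt+ replicate 3 of Izumo1r (6385) lies among the CCR6+ RORγt- libraries.

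Of the 7 members, 5 had a log2 fold change below 0 and 2 above it, with a median of −0.742, where the median over all 15944 genes was −0.0109. Groups without overlap were seen for 4 members lower in RORγt+ Tregs, beside 9.81% of all genes in that direction, and for 2 members higher, beside 8.31% of all genes (18.1% in either direction). Limma called 1 of the 7, Penk, at an adjusted p under 0.05, beside 0.564% of all genes, of which 0.32% were higher and 0.245% lower in RORγt+ Tregs. Because the members were picked on this contrast, nothing is read from these counts. The call of Penk was made without RORγt+ replicate 3 and was lost when any of the other 5 libraries was left out.

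**Figure D2:**
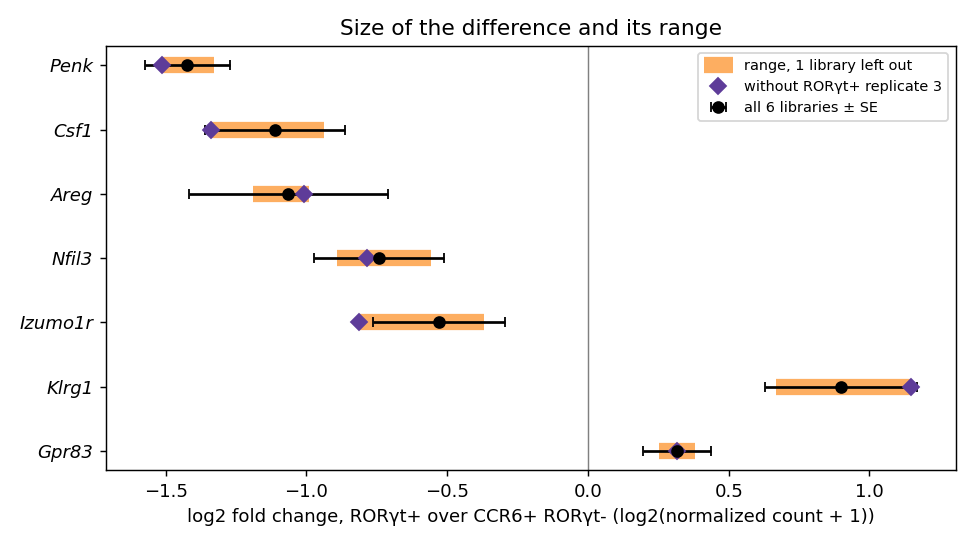
Log2 fold change of each member, RORγt+ over CCR6+ RORγt- (horizontal axis, on log2(normalized count + 1)). Points with bars are the value with all 6 libraries ± SE, orange bars the range with 1 library left out, and diamonds the value without RORγt+ replicate 3; the value of Izumo1r is −0.53 with all libraries and −0.81 without that replicate.

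To compare the members with each other, counts were divided by the length of the longest coding transcript, so the following are levels in normalized counts per kilobase. In RORγt+ Tregs, Izumo1r led with 3480 (2680 to 4950), followed by Gpr83 with 457 (418 to 498), Klrg1 with 422 (288 to 560), Penk with 180 (157 to 202), Csf1 with 65.6 (53.6 to 87.5), Nfil3 with 48.1 (46.5 to 50.9) and Areg with 10.1 (8.98 to 12.1). The ranges of Gpr83 and Klrg1 overlapped, so their order is not set, and the other neighbours did not overlap. In CCR6+ RORγt- Tregs the order was Izumo1r with 4820 (4530 to 5000), Penk with 481 (460 to 500), Gpr83 with 367 (359 to 381), Klrg1 with 221 (189 to 275), Csf1 with 141 (118 to 177), Nfil3 with 82.2 (65.7 to 104) and Areg with 22.0 (18.2 to 24.0), with no overlap between neighbours. Per kilobase, Penk thus stood below Gpr83 and Klrg1 in RORγt+ Tregs and above both in CCR6+ RORγt- Tregs. Its place above Gpr83 rests on the lengths used, and the longest transcript may not be the one expressed. Before that division Penk averaged 697 and Gpr83 1315 normalized counts in CCR6+ RORγt- Tregs.

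The members deviated in different directions within most libraries. Relative to the group mean on the log2 scale, RORγt+ replicate 3 was high for Izumo1r (0.57) and Csf1 (0.45), low for Klrg1 (−0.50) and near the mean for Gpr83 (0.002). CCR6+ RORγt- replicate 1 was high for Nfil3 (0.37) and Csf1 (0.35), and replicate 2 of that sort was high for Klrg1 (0.33) and low for Nfil3 (−0.30). In CCR6+ RORγt- replicate 3 all 7 members lay below the group mean, by −0.25 to −0.025. The RORγt+ library closest to the CCR6+ RORγt- mean was replicate 3 for 5 members (Penk, Klrg1, Izumo1r, Nfil3 and Csf1), replicate 1 for Areg and replicate 2 for Gpr83. Over the 10333 genes with a mean of at least 50 normalized counts, replicate 3 was the closest for 23.0%. The members were chosen on this contrast and those genes were not, so nothing is read from the difference in share. Over those genes the median absolute log2 deviation from the group mean was 0.278 in RORγt+ replicate 3, against 0.171 and 0.164 in replicates 1 and 2.

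**Figure D3:**
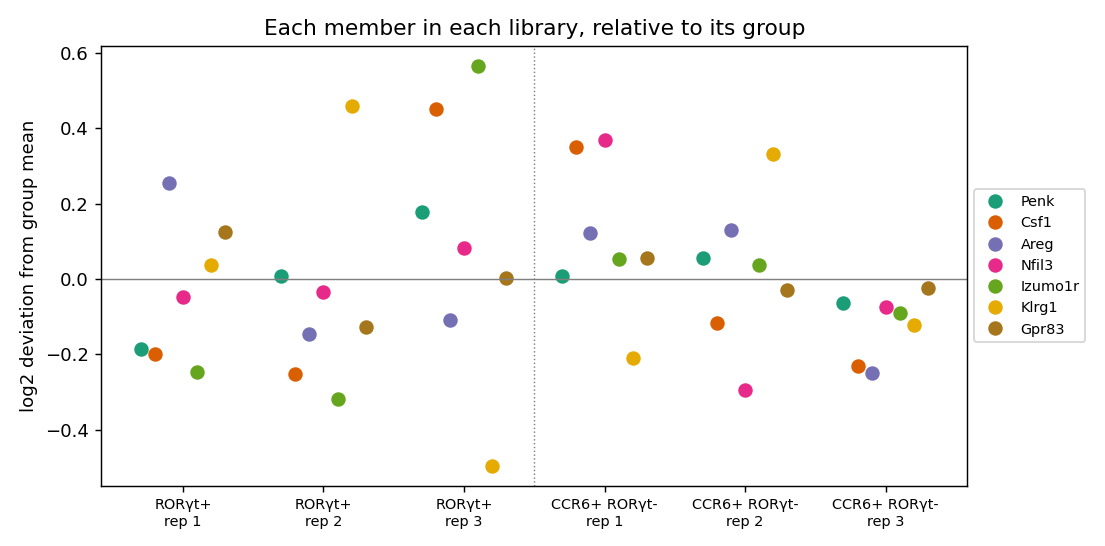
Deviation of each member from the mean of its own group on the log2 scale (vertical axis) in the 3 RORγt+ and 3 CCR6+ RORγt- libraries, 1 colour per gene. RORγt+ replicate 3 shows the widest spread, with Izumo1r at 0.57 and Klrg1 at −0.50.

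Genes with the pattern most like each member over the 6 libraries were taken as those with the smallest root mean square difference in centred log2 values, among genes with a mean of at least 50 normalized counts. For Penk these were Nanos1 (0.078), Cd83, a surface protein of activated lymphocytes (0.0867), and Ubfd1 (0.098). Nanos1 held 49.1, 61.5 and 70.3 normalized counts in RORγt+ Tregs and 150, 151 and 154 in CCR6+ RORγt- Tregs, and like Penk it was lowest in replicate 1 and highest in replicate 3 of the RORγt+ libraries. For Csf1 they were Susd2 (0.0855), Abhd4 (0.133) and Arrdc4 (0.134), and for Areg Tbc1d4 (0.116), Mrrf (0.146) and Enpp5 (0.15). For Nfil3 they were Pitpnm2 (0.0942), Arfip2 (0.113) and Tdrp (0.123). Izumo1r was nearest to Smyd4 (0.0802), Art2b (0.0983) and Otud1 (0.113), all of which were also highest among RORγt+ libraries in replicate 3. Such shared features, here and for Nanos1 and Penk, follow from how the genes were picked. Klrg1 was nearest to the condensin subunit gene Ncaph (0.11), H2ac24 (0.15) and Cmpk2 (0.17), and Gpr83 to Ulk3 (0.0316), Sae1 (0.0412) and Gm49396 (0.0464).

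The partners of each member in its pathway were read next, from lists of genes that exclude the members and were tested with limma over all genes. For Penk, 8 of 15 listed genes of opioid peptides, their processing and their receptors were measured, and none passed in either direction (adjusted p 0.208 to 0.988), with 2 higher and 0 lower at an unadjusted p under 0.05. Among them, carboxypeptidase E (Cpe), which trims peptides cut from precursors such as proenkephalin, averaged 73.2 ± 27.7 in RORγt+ Tregs and 27.8 ± 3.23 normalized counts in CCR6+ RORγt- Tregs (SD, n = 3 each) (limma adjusted p = 0.208). The protease gene Furin averaged 1090 ± 386 and 712 ± 72.4, and the enkephalin-degrading peptidase Dpp3 899 ± 258 and 714 ± 119. RORγt+ replicate 3 was the highest for Cpe (55.8, 58.7 and 105 in RORγt+ replicates 1 to 3), Furin (747, 1015 and 1507) and Dpp3 (733, 769 and 1197). Lnpep, an aminopeptidase gene, averaged 3649 ± 1827 and 3599 ± 1722. The convertase Pcsk1, which cuts proenkephalin and was chosen after its values were seen, stood at 34.2, 23.1 and 16.6 normalized counts in RORγt+ Tregs and 1.90, 9.37 and 5.94 in CCR6+ RORγt- Tregs (limma adjusted p = 0.257). Cpe and Pcsk1 were higher by value without overlap, as were 8.31% of all genes, and the opioid receptor family gene Oprl1, also picked later, was lower without overlap at 1.52, 0 and 0.85 in RORγt+ Tregs and 2.89, 3.88 and 1.67 in CCR6+ RORγt- Tregs.

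For Areg, 12 of 19 listed genes of EGF family ligands, receptors and shedding were measured, and none passed limma's test in either direction (adjusted p 0.208 to 0.986), with 2 higher and 0 lower at an unadjusted p under 0.05. The sheddase gene Adam17, whose product releases amphiregulin from the cell surface, averaged 1132 ± 105 in RORγt+ Tregs and 1183 ± 81.7 normalized counts in CCR6+ RORγt- Tregs (SD, n = 3 each), and Adam10 averaged 1843 ± 452 and 1886 ± 410.4. Erbb3, a receptor of the family, averaged 218 ± 35.9 and 192 ± 28.6. Rhbdf2, an iRhom that carries ADAM17 to the cell surface, averaged 183 ± 24.4 and 113 ± 5.27 (limma adjusted p = 0.241).

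For Csf1, 7 of 10 listed genes were measured, which were receptors of colony-stimulating factors and the cytokine genes Tnfsf11 and Spp1, and none passed limma's test (adjusted p 0.197 to 0.985), with 0 higher and 2 lower, Tnfsf11 and Spp1, at an unadjusted p under 0.05. The receptor gene Csf1r was close to the floor, at 7.56, 5.61 and 9.04 in RORγt+ Tregs and 1.44, 4.99 and 1.15 normalized counts in CCR6+ RORγt- Tregs. Tnfsf11, the gene of the osteoclast cytokine RANKL, averaged 339 ± 31.5 and 514 ± 43.2 (SD, n = 3 each, limma adjusted p = 0.197). Csf2ra averaged 37.8 ± 9.48 and 34.0 ± 3.63, and Csf2rb stood at 0.51, 84.8 and 0.60 in RORγt+ Tregs and 0, 2.17 and 1.91 in CCR6+ RORγt- Tregs, so that only RORγt+ replicate 2 was high. The matrix cytokine gene Spp1, chosen after its values were seen, was listed at 0 in each RORγt+ library and stood at 6.62, 11.7 and 1.39 in CCR6+ RORγt- Tregs.

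For Nfil3, 11 of 12 listed relatives and partners were measured, and limma called 1 higher in RORγt+ Tregs and 0 lower, with 5 higher and 3 lower at an unadjusted p under 0.05. The called gene was Nr1d1, which encodes REV-ERBα, a circadian repressor known to hold down Nfil3 in mouse T cells. Nr1d1 held 264, 288 and 545 normalized counts in RORγt+ Tregs and 42.6, 51.3 and 42.9 in CCR6+ RORγt- Tregs (log2 fold change 2.90 ± 0.31, SE, limma adjusted p = 0.0136). Nr1d1 was higher in the sort with less Nfil3. RORγt+ replicate 3, with the most Nr1d1, also had the most Nfil3 of the RORγt+ libraries, which differed little in Nfil3 (94.2, 95.0 and 103). Any link between Nr1d1 and Nfil3 was not tested. Thra overlaps Nr1d1 on the other strand and shares 7.85% of its windows, and averaged 415 ± 97.5 and 296 ± 70.4 (limma adjusted p = 0.541). Tox, which NFIL3 is known to induce in mouse innate lymphoid precursors, averaged 1500 ± 161 and 2320 ± 181 (limma adjusted p = 0.125), the REV-ERBβ gene Nr1d2 798 ± 204 and 522 ± 91.3, and the clock gene Per1 420.3 ± 87.8 and 479 ± 28.1, and none of these passed. The D-box factor Dbp, which binds the same sites as NFIL3 and was chosen after its values were seen, averaged 440 ± 54.3 and 291 ± 19.6 (limma adjusted p = 0.228). Its relative Tef averaged 417 ± 49.3 and 456 ± 38.5 (limma adjusted p = 0.838). Another relative, Hlf, also picked later, stood at 32.3, 121 and 82.7 in RORγt+ Tregs and 6.16, 20.35 and 3.57 in CCR6+ RORγt- Tregs (limma adjusted p = 0.171).

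For Klrg1, 15 of 18 listed genes of its ligands, signalling and related lectin receptors were measured. None passed limma's test (adjusted p 0.101 to 0.971), and 3 were higher and 1 lower at an unadjusted p under 0.05. The lower was Ptpn11, and the 3 higher, named after their values were seen, were the lectin receptor genes Klrb1f, Klrk1 and Klrc1. Klrb1f averaged 60.0 ± 9.8 in RORγt+ Tregs and 7.82 ± 7.07 normalized counts in CCR6+ RORγt- Tregs (limma adjusted p = 0.101). Klrk1 averaged 16.8 ± 4.26 and 3.14 ± 4.64, and Klrc1, near the floor, 5.58 ± 3.09 and 0.83 ± 0.73. Inpp5d, which encodes the phosphatase SHIP1 recruited by KLRG1, averaged 2788 ± 41.4 in RORγt+ Tregs and 2534 ± 548 normalized counts in CCR6+ RORγt- Tregs (SD, n = 3 each). Ptpn6, the gene of the phosphatase SHP-1, averaged 2901 ± 983 and 3258 ± 1108, and the lectin gene Clec2d 2543 ± 788 and 1944 ± 192. The gene of the phosphatase SHP-2, Ptpn11, averaged 1201 ± 107 and 1795 ± 105 (limma adjusted p = 0.128). The ligand gene Cdh1, E-cadherin, chosen after its values were seen, was near the floor, at 4.03, 0.89 and 2.21 in RORγt+ Tregs and 3.85, 4.85 and 6.57 in CCR6+ RORγt- Tregs.

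For Gpr83, 5 of 10 listed genes were measured and none passed limma's test (adjusted p 0.435 to 0.952, 0 higher and 1 lower at an unadjusted p under 0.05). The lower of these, the G protein subunit gene Gnaq, averaged 248 ± 134 in RORγt+ Tregs and 475 ± 57.3 normalized counts in CCR6+ RORγt- Tregs (SD, n = 3 each). RORγt+ replicate 3 was far the lowest for Gnaq, at 94.2, beside 336 and 314 in RORγt+ replicates 1 and 2. Gnai2 averaged 10510 ± 1709 and 12091 ± 1203, Gna11 369 ± 158 and 312 ± 83.6, and Gpr171, another receptor gene, 289 ± 14.4 and 303 ± 42.6. For Izumo1r, 11 of 13 listed genes of the folate receptor family and of folate handling were measured. None of these passed limma's test (adjusted p 0.493 to 0.983), and 0 had an unadjusted p under 0.05. Their log2 fold changes lay between −0.39 and 1.39. The most abundant, the mitochondrial folate enzyme gene Mthfd2, averaged 671 ± 135 and 692 ± 24.2.

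Other genes of the tissue Treg programme were set beside the members. Among 29 measured genes limma called 4 higher in RORγt+ Tregs and 0 lower, leaving 25 that did not pass, while 9 were higher and 7 lower at an unadjusted p under 0.05. The median log2 fold change was 0.0167. The calls in this list moved to 5 higher and 2 lower without RORγt+ replicate 3, 5 higher and 5 lower with array weights, 4 higher and 2 lower with upper-quartile scaling, and 1 higher and 0 lower without a variance trend. The genes that rose were Itgae, the integrin that binds E-cadherin (2109 ± 222 in RORγt+ Tregs and 752 ± 98.4 normalized counts in CCR6+ RORγt- Tregs, SD, n = 3 each, limma adjusted p = 0.012), Il18r1, the IL-18 receptor (2924 ± 325 and 1250 ± 165, adjusted p = 0.0219), the galectin gene Lgals1 (2353 ± 230.5 and 1093 ± 109.8, adjusted p = 0.0219), and Glrx, a glutaredoxin (1502 ± 218 and 753 ± 68.8, adjusted p = 0.0453). The highest of the genes that did not pass were Maf (4127 ± 560 and 2904 ± 141), Ctla4 (2278 ± 281 and 1614 ± 231), Icos (2198 ± 303 and 1597 ± 49.1) and Gata3 (1442 ± 14.4 and 1577 ± 85.7).

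Some genes of that programme were picked out after their values were seen. The chemokine receptor gene Ccr8 held 71.5, 87.9 and 82.1 normalized counts in RORγt+ Tregs and 179, 212 and 173 in CCR6+ RORγt- Tregs (limma adjusted p = 0.0593), and the costimulator gene Tnfrsf9 658, 739 and 788 against 1434, 1339 and 1153 (limma adjusted p = 0.0601). Neither passed, and both lay lower by value without overlap, as 9 of the 29 genes of the list did, beside 9.81% of all genes. Another 9 lay higher without overlap, beside 8.31% of all genes. The list was chosen with earlier results of these data known, so nothing is read from these counts. Batf, a transcription factor needed for tissue Tregs in mice, averaged 606 ± 84.9 and 878 ± 47.3 (limma adjusted p = 0.24). The IL-33 receptor gene Il1rl1 stood at 1179, 1525 and 361 in RORγt+ Tregs and 306, 433 and 319 in CCR6+ RORγt- Tregs, so that RORγt+ replicate 3 alone fell within the other range, as it did for Izumo1r.

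**Figure D4:**
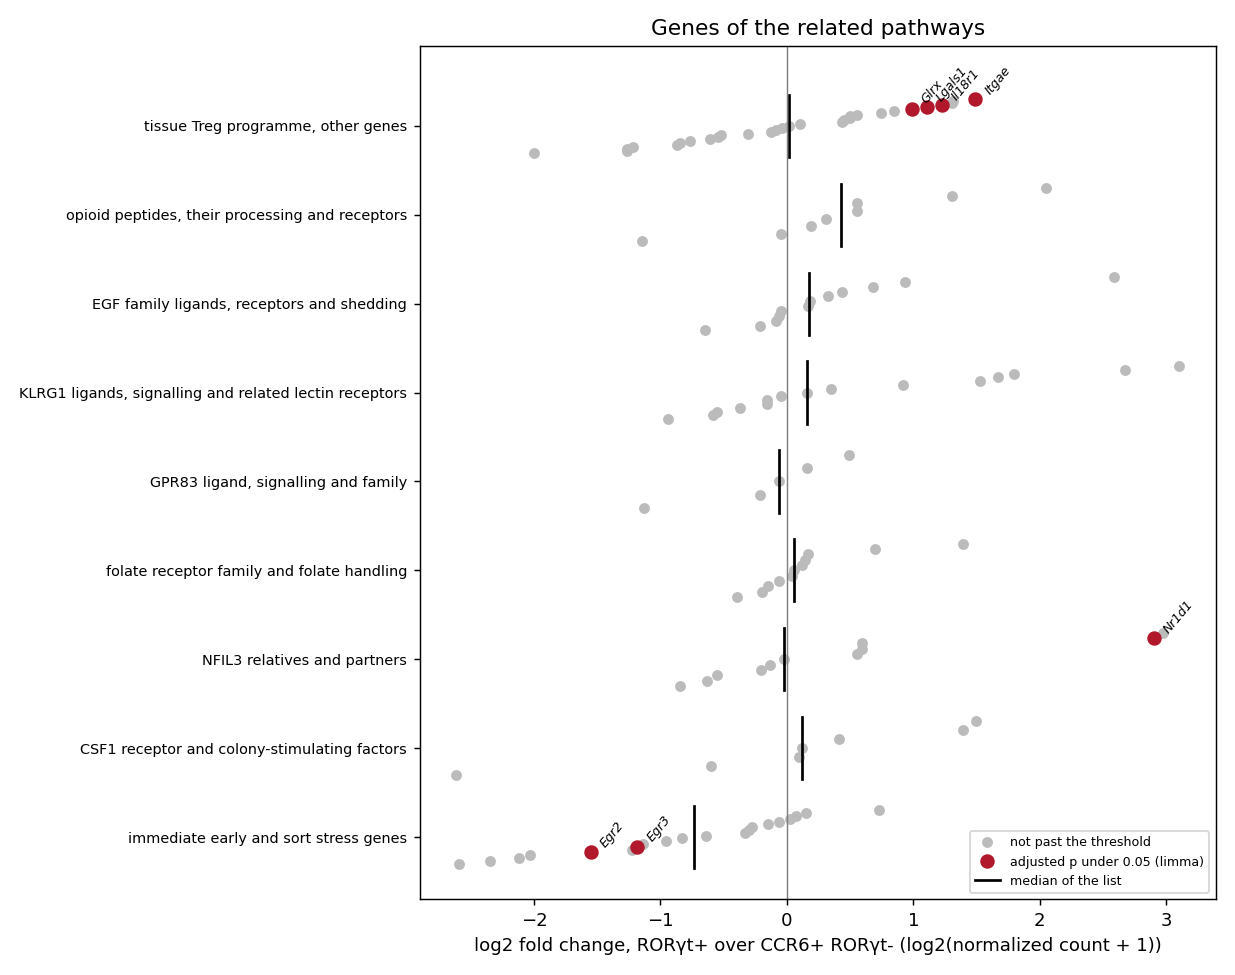
Log2 fold change of each measured gene in the lists beside the members, RORγt+ over CCR6+ RORγt- (horizontal axis, on log2(normalized count + 1)), 1 row per list; red points passed limma's test and black lines are medians. Calls stand in 3 of the 9 lists, Itgae, Il18r1, Lgals1, Glrx and Nr1d1 to the right and Egr2 and Egr3 to the left; the leftmost point of the CSF1 row is Spp1, whose fitted value against libraries at 0 is no fold change.

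Markers of activation and of other cells were read beside these results. Among 20 immediate early and sort stress genes, all measured, limma called 2 lower in RORγt+ Tregs and 0 higher, leaving 18 that did not pass, and the median log2 fold change was −0.734. At an unadjusted p under 0.05, 0 were higher and 9 lower, and the calls moved to 5 lower without RORγt+ replicate 3 and 8 lower with array weights. The 2 genes called with all libraries were the antigen response factors Egr2 and Egr3. Egr2 averaged 225 ± 12 in RORγt+ Tregs and 663 ± 67.8 normalized counts in CCR6+ RORγt- Tregs (SD, n = 3 each, limma adjusted p = 0.00961). Egr3 averaged 228 ± 31.6 and 517 ± 43.7 (limma adjusted p = 0.0329). The summed level of the list was 7070 to 10042 in RORγt+ Tregs and 10272 to 11709 in CCR6+ RORγt- Tregs, so it was lower beside the lower Penk, Csf1, Areg and Nfil3, and its part in them was not tested. Of the genes that did not pass, the highest were Zfp36 (1603 ± 376 and 1551 ± 25.0), Junb (1192 ± 223 and 1483 ± 52.5), Hspe1 (960 ± 238 and 1163 ± 127) and Egr1 (760 ± 74.0 and 1181 ± 66.8). Others, picked after their values were seen, were lower only at an unadjusted p under 0.05. They included the heat shock genes Hspa1a (42.8 ± 53.3 and 147 ± 47.2), Hspa1b (207.8 ± 243.5 and 632 ± 233) and Hspb1 (4.59 ± 3.44 and 20.1 ± 6.45). Fosb (11.9 ± 3.63 and 53.5 ± 1.75) was another. In a list of 14 Treg core genes, limma called 1 higher, Socs2, an inhibitor of cytokine signalling (842 ± 24.3 and 311 ± 53.6, limma adjusted p = 0.0157), and 0 lower. Besides Foxp3, its most abundant genes were Cd4 (10037 ± 1845 and 10729 ± 1643), Il2rb (9477 ± 1145 and 10905 ± 673) and Il2ra (8239 ± 1291 and 6113 ± 437), which did not pass.

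Klrg1 is also expressed by NK and CD8 T cells, Areg by basophils, mast cells and group 2 innate lymphoid cells (ILC2), and Csf1 by cells other than T cells. The 10 measured NK and CD8 markers summed to 363 to 407 normalized counts in RORγt+ Tregs and 378 to 469 in CCR6+ RORγt- Tregs. The most abundant were Prf1 (106.5 ± 8.74 and 144 ± 7.80, SD, n = 3 each) and Cd8b1 (117 ± 13.9 and 108 ± 10.8). Of the 10, 7 had a log2 fold change above 0, and the median was 0.428. Ncr1, a defining NK marker chosen after its values were seen, stood at 4.12, 15.1 and 0 in RORγt+ Tregs and 0, 4.62 and 0 in CCR6+ RORγt- Tregs. Of 12 ILC2, mast cell and basophil markers 4 were measured, summing to 246 to 498 and 115 to 217, of which Il9r made up most, with means of 348 ± 118 in RORγt+ Tregs and 142 ± 52.1 in CCR6+ RORγt- Tregs. The others ran both ways by value: Kit, which marks mast cells, averaged 22.4 ± 8.33 and 3.60 ± 2.22, while Cd200r3 averaged 6.98 ± 3.57 and 11.9 ± 2.32 and Il4 0.65 ± 1.13 and 4.36 ± 1.57. In the same order of groups, 5 of 12 myeloid markers summed to 71.9 to 146 and 37.9 to 59.1. B cell markers (8 of 8) summed to 245 to 586 and 189 to 404, and red cell and platelet markers (5 of 8) to 129 to 868 and 53.6 to 4281. No gene of these 5 lists passed limma's test, and at an unadjusted p under 0.05 the ILC2, mast cell and basophil list held 2 higher and 1 lower gene, the myeloid list 1 higher gene and the other lists 0. C1qa, a macrophage marker also chosen after its values were seen, was listed at 0 in 1 RORγt+ library and all 3 CCR6+ RORγt- libraries. The part of these cells in the members' values was not tested.

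All 8 of the genes called in these lists passed when RORγt+ replicate 3 was left out and none of the 8 passed when any of the other 5 libraries was, with adjusted p between 0.0575 and 0.258 in those fits. Without a variance trend Egr3 (limma adjusted p = 0.0725), Il18r1 (0.0725), Lgals1 (0.0745) and Glrx (0.127) no longer passed, and with the replicate number as a block none of the 8 did (adjusted p 0.109 to 0.284).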

How the data were processed

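The members and the gene lists were chosen with earlier results of these data known. The deposited table holds 1 signal value per gene and library, normalized counts with 2 decimals made by the authors; per the submitters' processing notes, the tools include Salmon 1.2.0 and DESeq2 and the build is GRCm38. Their roles, the annotation and any filter were not given in the sources used here. From the values, 51.5% to 69.3% of values under 20 reads were within 0.1 read of whole, too few to recover counts, and no count test was used. Values were analysed as log2(value + 1) for all 15944 genes with limma 3.58.1 in R 4.3.3 (group term, trended empirical Bayes variances, two-sided tests, adjusted p under 0.05 by Benjamini-Hochberg), after the fit had been tested on simulated data. Named genes were all members, every listed gene past the threshold, and up to 4 others of the highest mean per list, or only ranges and counts for a list without a call, plus the 3 nearest patterns per member, Foxp3 and Ccr6; any others are said to be chosen later. GENCODE M21 gave positions, lengths and the names of 1789 rows without a symbol. Where a symbol was repeated, only the row with the highest mean kept it, and 52 rows lost it. Alternatives were other pseudocounts, a filter, scalings, variance models, array weights, a replicate block and each library left out.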

Additional observations from a re-analysis of the deposited data

How the results depend on the processing

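Each member kept the sign of its fold change under all 15 alternatives, all of them planned. These were other pseudocounts, scalings, variance models, a mean of at least 10, array weights, the replicate block and each library left out. The variance models, the mean filter and the replicate block cannot change a fold change. Every shift was below the residual SD of the fit, but leaving out 1 of 3 libraries cannot shift it further than that, so no stability is read from it. With 1 library left out, the log2 fold change of Izumo1r ranged from −0.81 to −0.37. Counts of calls moved with the libraries and with the processing. Without a variance trend 92 genes were called, 58 of them among the 90 called with it. Array weights gave 358 called genes (170 higher, 188 lower) and 4 members (Penk, Csf1, Klrg1 and Izumo1r). With the replicate block, 1 gene was called (1 higher, 0 lower, and 1130 genes at an unadjusted p under 0.05) and 0 members. Deviations from the group mean correlated at −0.11, −0.02 and −0.18 between libraries that share a number, and 0 of 6 libraries correlated best with its own number, so the numbers were not taken to pair libraries. With any 1 library left out the calls numbered 4 to 174 (1 to 85 higher, 0 to 89 lower) and 0 to 3 members, with the highest counts without RORγt+ replicate 3 (Penk, Csf1 and Izumo1r). Counts within the gene lists moved past 1.5 times upward in 14 and downward in 25 instances, against 411 that did not. Most of the 411 were counts of 0 that stayed at 0, so they do not measure stability. All 25 downward moves were in the few counts above 0 in the main fit. The cause of these changes was not tested. At about 9 to 32 reads, the values of Areg are limited by depth.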
